A study of Homo sapiens with 16 samples.

Results

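The fibroblast growth factor (FGF) genes described here are 4 ligands (*FGF10*, *FGF1*, *FGF2* and *FGF9*), 3 receptors (*FGFR1*, *FGFR2* and *FGFR3*) and the feedback inhibitor *SPRY2*. They were chosen by name as genes of the FGF pathway, with earlier results of these data known. Every listed acetylation peak that touched one of their 8 gene windows was taken. A window is the gene, with its edges rounded to 10 kb, extended by 50 kb on each side. Of the 179689 peaks on the standard chromosomes in the 8 deposited lists, 223 lay in these windows. *FGF10* belongs to the 8 genes because the study had singled it out in these same libraries, so its gain is described here and is not independent evidence of that direction.

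ChIP-seq of H3K27ac, an acetylation mark of active enhancers and promoters, was performed in untreated A2780 and CAOV4 cells, in their cisplatin-resistant counterparts A2780cis and CAOV4cis, which the labels give as treated with cisplatin, and in A2780 cells after 1 week of knockdown of *MBD3* with 1 of 2 shRNAs, shMBD3.26 or shMBD3.232. H3K9ac, a related mark of active chromatin, was profiled in A2780 and A2780cis cells only. A2780 is a cell line of endometrioid ovarian carcinoma and CAOV4 one of ovarian adenocarcinoma, *MBD3* encodes a subunit of the NuRD chromatin remodeling complex, and the shRNA cells were sorted for GFP before chromatin was prepared. Each condition was a single library, each resistant line is 1 derivative of its parent, and the cells with the control shRNA and the input libraries were not analysed here. The shRNA lists were therefore compared with untransduced A2780 cells. Effects of transduction, drug selection, doxycycline induction and sorting thus cannot be told apart from those of the knockdown. All comparisons within A2780 of H3K27ac share the same A2780 list.

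Most FGFs are secreted ligands that bind receptor tyrosine kinases at the cell surface together with heparan sulfate or Klotho co-receptors. Active receptors signal through adaptors such as FRS2 and GRB2 to the MAPK and PI3K/Akt pathways, and this signaling induces its own brakes, among them the Sprouty and SPRED proteins and the phosphatase DUSP6. The pathway drives branching of epithelia in development and is frequently reactivated in tumors, where it has been linked to growth and to drug response.

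The lists hold the start and end of each peak on the hg19 build and no signal, since the score is 0 in every row, so the read depth that supports each peak could not be assessed. The measure used was therefore the length of a gene window covered by peaks, in kb or as a percentage of the window (covered share). A window was called higher or lower where its covered share was at least 2 times and at least 5 percentage points above that of the other list. The same rule applied to all 200 kb tiles of the genome with a peak in either list gave the background, and no p-value was computed because no group had a replicate. The lists held between 15365 and 28662 peaks covering 54.5 to 98.9 Mb. The 200 bp grid of the peak boundaries sets the smallest step of every value.

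The epithelial label was checked at 5 genes. The A2780 H3K27ac list had no peak within 5 kb of *PAX8*, *WT1*, *EPCAM*, *KRT8* or *KRT18*, and the A2780cis list had only 4.6 kb at *KRT18* and 0.4 kb at *PAX8*. The other 4 lists of A2780 origin had at most 1.2 kb each over these 5 genes, at *KRT18*. In CAOV4 and CAOV4cis cells, *KRT8* was covered over 16.0 and 17 kb, *KRT18* over 15.6 and 16.8 kb, *WT1* over 6.0 and 6.4 kb and *EPCAM* over 5.0 and 4.0 kb, whereas *PAX8* had no peak. The lists of A2780 origin thus lacked most of the epithelial marks that both CAOV4 lists carried. The T cell gene *CD3E* and the muscle gene *MYOD1* had no peak in any of the 8 lists, and the endothelial gene *PECAM1* had 1.2 kb in A2780 and 1.0 kb in CAOV4cis among the H3K27ac lists of the untransduced cells.

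The promoter sequences of the genes that changed most and of those that served as contrasts are given first, because the comparisons below concern the acetylation at these genes. The RefSeq promoter table used here held a promoter of 300 bases, from 250 before to 50 after the start, for 6 of the 8 genes. They are written 5′ to 3′ on the strand of the gene, in lower case, with capitals for 2 motifs on either strand, the GC box (GGGCGG) and the CCAAT box (CCAAT). Of 27305 RefSeq promoters of the same length, 44.6% held a GC box and 35.7% a CCAAT box. *FGF10* (chr5:44389371-44389670, GRCh38.p14, minus strand) and *FGF1* (chr5:142698021-142698320, GRCh38.p14, minus strand) are the ligands whose windows gained both marks in A2780cis cells.
FGF10: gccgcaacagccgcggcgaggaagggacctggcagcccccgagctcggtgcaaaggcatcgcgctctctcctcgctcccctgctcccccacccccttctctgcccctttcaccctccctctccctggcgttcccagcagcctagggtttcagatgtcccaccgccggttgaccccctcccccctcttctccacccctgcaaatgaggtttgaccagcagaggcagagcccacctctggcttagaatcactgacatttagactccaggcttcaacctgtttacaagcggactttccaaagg
FGF1: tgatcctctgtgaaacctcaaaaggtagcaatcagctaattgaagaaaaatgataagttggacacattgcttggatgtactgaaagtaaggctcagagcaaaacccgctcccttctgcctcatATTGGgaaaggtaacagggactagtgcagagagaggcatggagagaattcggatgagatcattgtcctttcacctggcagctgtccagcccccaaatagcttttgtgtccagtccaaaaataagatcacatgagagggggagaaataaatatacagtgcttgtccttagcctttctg
*FGFR2* (chr10:121598395-121598694, GRCh38.p14, minus strand) encodes the receptor that FGF10 binds, and *SPRY2* (chr13:80341077-80341376, GRCh38.p14, minus strand) was the most widely covered window in A2780 cells, so their promoters are shown for contrast.
FGFR2: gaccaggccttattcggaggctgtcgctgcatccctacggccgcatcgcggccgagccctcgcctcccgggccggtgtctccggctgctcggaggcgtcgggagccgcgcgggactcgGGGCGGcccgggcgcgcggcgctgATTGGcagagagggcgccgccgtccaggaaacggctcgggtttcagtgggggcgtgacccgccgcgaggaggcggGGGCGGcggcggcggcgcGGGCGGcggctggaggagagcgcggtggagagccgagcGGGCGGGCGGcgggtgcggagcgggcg
SPRY2: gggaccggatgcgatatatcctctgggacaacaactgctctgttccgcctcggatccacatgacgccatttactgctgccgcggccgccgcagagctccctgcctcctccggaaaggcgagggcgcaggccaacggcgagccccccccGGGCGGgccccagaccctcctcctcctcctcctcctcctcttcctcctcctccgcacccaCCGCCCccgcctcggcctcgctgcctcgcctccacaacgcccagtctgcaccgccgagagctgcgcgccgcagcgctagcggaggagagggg
The *FGF10* promoter contained 13 CpG dinucleotides and no GC box, close to the median of 14 CpG over all promoters. The *FGF1* promoter was the poorest in CpG of the 6, with 2, and held 1 CCAAT box. The promoters of *FGFR2* and *SPRY2* contained 52 and 30 CpG and 5 and 2 GC boxes, and those of *FGFR3* and *FGF2*, not shown, 51 and 41 CpG and 8 and 3 GC boxes. The 2 ligands gained in A2780cis cells thus had the fewest CpG among the 6 promoters in the table. Only 1 promoter per gene was used, and *FGF10* was included with its gain known. Whether the number of CpG goes with the gain was not tested. None of the 6 held a TATA box (TATAAA) or an AP-1 site (TGANTCA), which were present in 11.95% and 7.76% of all promoters. These promoter positions are on another build than the peak lists and were not placed against the peaks.

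The primers with which the study measured H3K27ac at *FGF10* by ChIP-qPCR mark the site followed by that assay.
ChIPq_FGF10_fw: tccatttcgcacacatctacca
ChIPq_FGF10_rv: agtctcatctgctcccgtca
No exact match of either primer was found on either strand of the *FGF10* promoter shown above.

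*FGF10* encodes a ligand that mesenchymal cells secrete and that binds the epithelial form of FGFR2. Its window (chr5:44250001-44440000 of hg19, 190.0 kb) had no H3K27ac peak in A2780, CAOV4, CAOV4cis and shMBD3.232 cells, 0.2 kb in shMBD3.26 cells and 95 kb in A2780cis cells. H3K9ac covered 0 kb of it in A2780 and 14.2 kb in A2780cis cells. Listed peaks at *FGF10* were thus present in both lists of A2780cis and almost lacking in the 6 other lists. Since the depth is unknown, this does not show that the mark was absent there. As a share of the window, H3K27ac covered 50% and H3K9ac 7.47% in A2780cis cells, and no fold is given because the A2780 lists are at 0.

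The 12 H3K27ac peaks of A2780cis cells at *FGF10* were spread over nearly the whole window and beyond its upstream edge. The widest peak, of 30.0 kb (chr5:44370801-44400800), spanned the 5′ edge of the gene, from 19.2 kb inside to 10.8 kb upstream. The next covered 22.6 kb within the gene (chr5:44326601-44349200), and another of 12 kb (chr5:44436401-44448400) crossed the upstream end of the window. Peaks covered 67.6% of the gene itself and 34.2% of its flanks, so that coverage was denser within the gene than around it. All 20 kb within 10 kb of the 5′ edge were covered, against 0 kb in A2780, CAOV4, CAOV4cis and shMBD3.232 cells.

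The H3K9ac peaks of A2780cis cells at *FGF10* were fewer and narrower. There were 6 of them, the widest of 4.8 kb (chr5:44392001-44396800) and 4.2 kb (chr5:44384601-44388800), on either side of the 5′ edge. Of the 14.2 kb covered by H3K9ac, 10.2 kb lay within 10 kb of the 5′ edge. All of this length lay inside H3K27ac peaks, while 80.8 kb carried H3K27ac alone. H3K9ac was thus concentrated at the start of the gene, and H3K27ac extended along it.

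The only other peak at *FGF10* was 1 of 0.2 kb in shMBD3.26 cells (chr5:44389801-44390000), the smallest width the grid allows, which ended at the rounded 5′ edge. The neighborhood was empty in A2780 cells as well: the nearest H3K27ac peaks outside the window lay 645.2 kb and 366.6 kb away. In A2780cis cells these distances were 147.4 and 74.8 kb. RefSeq lists no other protein-coding gene within 50 kb of *FGF10*.

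**Figure D1:**
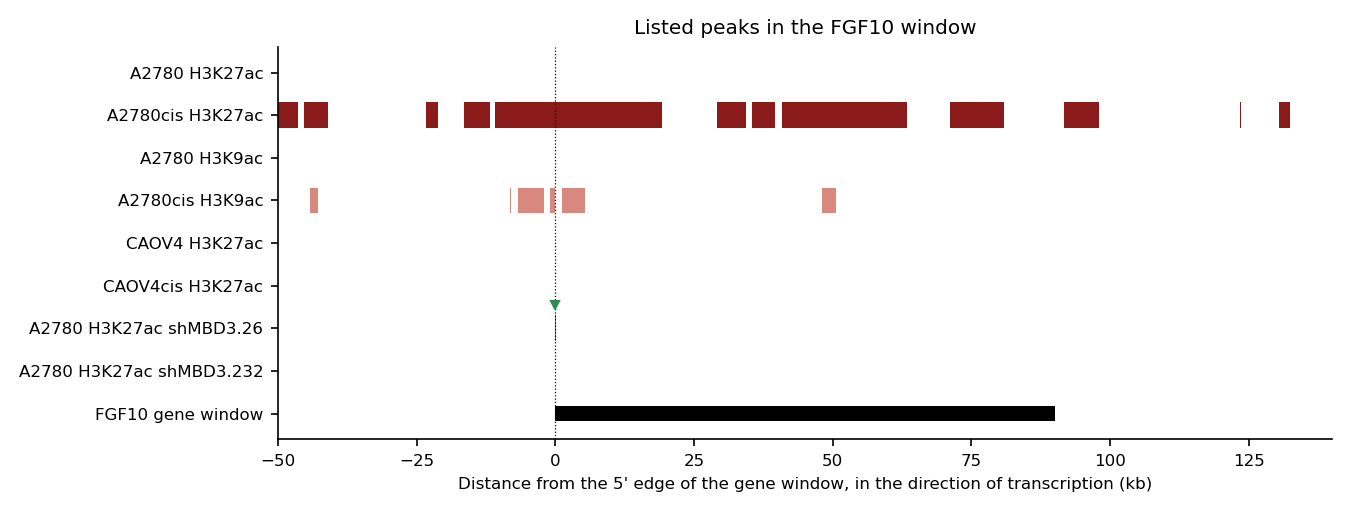
Listed peaks in the *FGF10* window, by distance in kb from the 5′ edge of the gene in the direction of transcription, with 1 row per list (1 library each) and the gene window in black. Peaks of A2780cis cells cover 95 kb for H3K27ac and 14.2 kb for H3K9ac, and the triangle marks the 0.2 kb peak of shMBD3.26 cells.

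*FGF1* encodes a ligand that can activate every FGF receptor. In its window (chr5:141920001-142130000, 210.0 kb), H3K27ac covered 14.8 kb in A2780 and 51.2 kb in A2780cis cells, and H3K9ac covered 12.8 and 34.6 kb. In CAOV4 and CAOV4cis cells, the H3K27ac lists held 2.4 and 2.6 kb, and in shMBD3.26 and shMBD3.232 cells 15 and 11.4 kb. *FGF1* was thus covered most widely in A2780cis cells for each mark, and the other A2780 lists differed from each other by a few kb. The covered share was 3.46 times that of A2780 for H3K27ac (24.4% against 7.05%) and 2.70 times for H3K9ac (16.5% against 6.10%).

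Within the *FGF1* gene itself, A2780 cells had no peak of either mark. In A2780cis cells, H3K27ac covered 23.5% and H3K9ac 6.36% of the gene. The covered length of A2780 cells lay mostly in 1 peak of 13.8 kb downstream of the gene (chr5:141919801-141933600), and A2780cis cells carried a peak of 25.0 kb at the same place (chr5:141911601-141936600). The gain at *FGF1* therefore had a part that widened a region already acetylated and a part, inside the gene, at sites without a peak in A2780. A small peak about 12 kb upstream of the 5′ edge was shared by all 6 H3K27ac lists, the CAOV4 pair included. In A2780cis cells, 24.4 kb of the window carried both marks, 26.8 kb H3K27ac alone and 10.2 kb H3K9ac alone, unlike *FGF10*, where no H3K9ac lay outside H3K27ac.

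*FGF2* encodes basic FGF, a ligand known for angiogenesis and for maintaining stem cells. Its window (chr4:123690001-123870000) was covered by H3K27ac over 15.4 kb in A2780, 24.2 kb in A2780cis, 11.8 kb in shMBD3.26 and 12.8 kb in shMBD3.232 cells. H3K9ac covered 12.2 and 13.2 kb in A2780 and A2780cis cells, whereas CAOV4 had no peak and CAOV4cis 2.4 kb. *FGF2* was thus covered over at least 11.8 kb in all 6 lists of A2780 origin and over little or nothing in the CAOV4 pair. The difference between A2780cis and A2780 was 4.89 percentage points for H3K27ac and 0.556 for H3K9ac, and neither passed the rule. The same 3 places held peaks in each of the 6 A2780 lists: upstream of the gene, just inside its 5′ edge and beyond its 3′ edge. The last of these widened to 13.4 kb in A2780cis cells. Within 10 kb of the 5′ edge, H3K27ac covered 4.6 kb in both A2780 and A2780cis cells. The window also holds *NUDT6* and *AFG2A* by RefSeq, so its peaks cannot be assigned to *FGF2* alone.

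*FGF9*, which encodes a ligand of the c forms of FGFR2 and FGFR3, had no peak in 7 of the 8 lists. Its window (chr13:22190001-22330000) held 1 peak of 0.6 kb in shMBD3.26 cells. Since the depth of the libraries is unknown, a list without a peak does not show that the mark was absent.

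**Figure D2:**
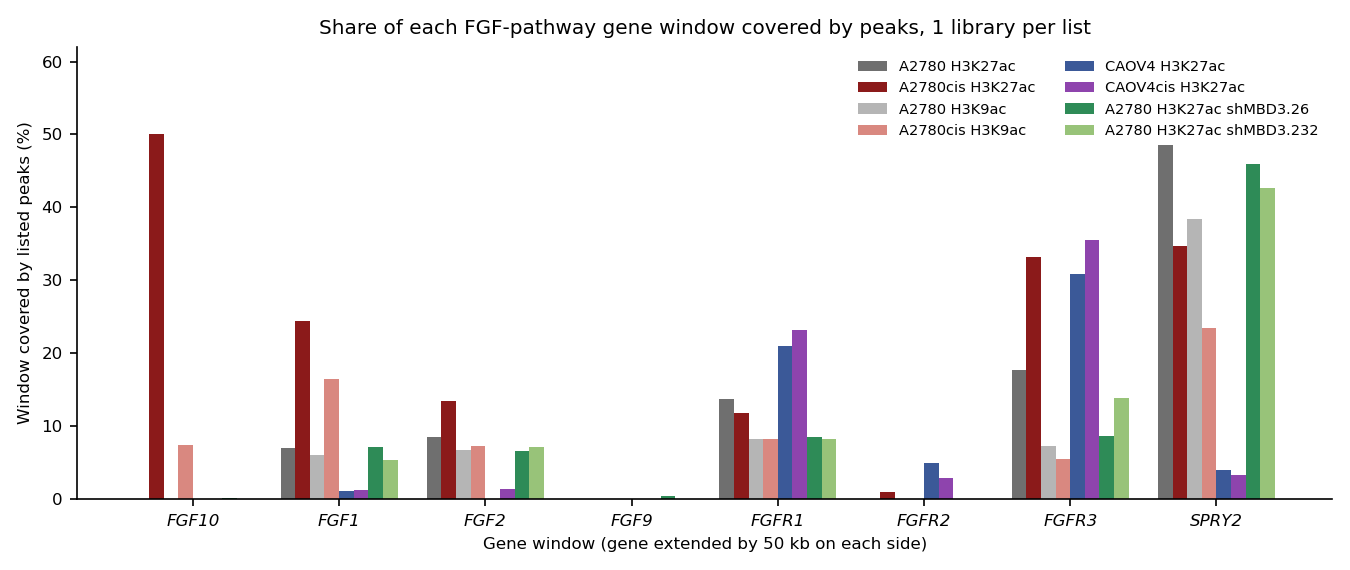
Share of each gene window covered by listed peaks (in percent, with 50 kb on each side of the gene) for the 8 genes in the 8 lists, each bar 1 library without an error. The *FGF10* bars stand at 50% and 7.47% in A2780cis cells, and those of *SPRY2* between 3.27% and 48.5%.

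Of the receptors, *FGFR1* and *FGFR3* were covered in all 8 lists. *FGFR1* encodes a receptor with broad expression, and its window (chr8:38210001-38380000) was covered by H3K27ac over 23.4 kb in A2780, 20 kb in A2780cis, 35.6 kb in CAOV4, 39.4 kb in CAOV4cis, 14.4 kb in shMBD3.26 and 14 kb in shMBD3.232 cells. H3K9ac covered 14 kb in A2780 cells and the same length in A2780cis cells. The CAOV4 pair was thus covered most widely, and both shRNA lists and both H3K9ac lists least. The differences were -2.0 percentage points in A2780cis and 2.24 in CAOV4cis cells, and -5.29 and -5.53 with the shRNAs, none of which passed the rule. RefSeq places *NSD3* and *LETM2* within 50 kb of this gene.

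*FGFR2* encodes the receptor for FGF10 in epithelial cells. Its window (chr10:123180001-123410000) had no H3K27ac peak in A2780 cells or with either shRNA and no H3K9ac peak in A2780 or A2780cis cells. It had 2.2 kb of H3K27ac in A2780cis, 11.4 kb in CAOV4 and 6.6 kb in CAOV4cis cells. In A2780cis cells this was 1 peak, from 1.2 to 3.4 kb inside the 5′ edge, and in CAOV4cis cells 2.4 kb lay within 10 kb of that edge, where CAOV4 cells had none. The single A2780cis peak is small and its difference of 0.957 percentage points did not pass the rule. *FGF10* and *FGFR2* together had H3K27ac peaks in A2780cis cells only among the 6 H3K27ac lists, a description of 1 library.

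*FGFR3* encodes a receptor that is amplified or mutated in several carcinomas. In its window (chr4:1740001-1860000), H3K27ac covered 21.2 kb in A2780, 39.8 kb in A2780cis, 37.0 kb in CAOV4, 42.6 kb in CAOV4cis, 10.4 kb in shMBD3.26 and 16.6 kb in shMBD3.232 cells. H3K9ac covered 8.8 kb in A2780 and 6.6 kb in A2780cis cells. Over the whole *FGFR3* window, A2780cis cells thus resembled the CAOV4 pair in H3K27ac length, while H3K9ac was short in both A2780 lists. Within the gene itself, H3K27ac covered 3.0 kb in A2780cis, 3.8 kb in A2780, 5.0 kb in CAOV4 and 9.4 kb in CAOV4cis cells. The H3K27ac share of the window was 33.2% in A2780cis and 17.7% in A2780 cells, 1.88 times. This difference of 15.5 percentage points did not pass the rule, and with no extension of the gene the difference was -4.0. The added length lay in the flanks, which were covered at 17.4% in A2780 and 36.8% in A2780cis cells and which hold *TACC3* and *LETM1*. With shMBD3.26, the covered share was 8.67% against 17.7% in A2780 and was called lower, just past the rule at 2.04 times, where 3.2% of all tiles were called lower. With shMBD3.232 it was 13.8% and was not called.

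*SPRY2* encodes Sprouty 2, a feedback inhibitor that FGF signaling induces. H3K27ac covered 53.4 kb of its window (chr13:80860001-80970000) in A2780, 38.2 kb in A2780cis, 50.6 kb in shMBD3.26 and 47.0 kb in shMBD3.232 cells, but only 4.4 kb in CAOV4 and 3.6 kb in CAOV4cis cells. H3K9ac covered 42.2 kb in A2780 and 25.8 kb in A2780cis cells. *SPRY2* was thus the most widely covered of the 8 windows in A2780 for both marks, and the shortest length among the 4 H3K27ac lists of A2780 origin, 38.2 kb, was well above both CAOV4 lists.

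The differences at *SPRY2* between A2780cis and A2780 cells were -13.8 percentage points for H3K27ac and -14.9 for H3K9ac, at 1.40 and 1.64 times, so that neither passed the rule. With 100 kb on each side of the gene they were -23.7 and -19.1, and *SPRY2* was called lower for both marks. The gene itself was covered in full by H3K27ac in A2780, A2780cis and both shRNA lists, and the shorter length of A2780cis cells lay in the flanks, at 43.4% in A2780 and 28.2% in A2780cis cells. For H3K9ac the gene was covered at 86% in A2780 and in full in A2780cis cells, so that the difference without the flanks was 14 percentage points, in the other direction. The widest H3K27ac peak measured 48.8 kb in A2780, 35.2 kb in A2780cis, 45.2 kb in shMBD3.26 and 47.0 kb in shMBD3.232 cells, and no other protein-coding gene lies within 50 kb by RefSeq. In CAOV4 and CAOV4cis cells the widest peaks measured 4.2 and 3.6 kb.

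**Figure D3:**
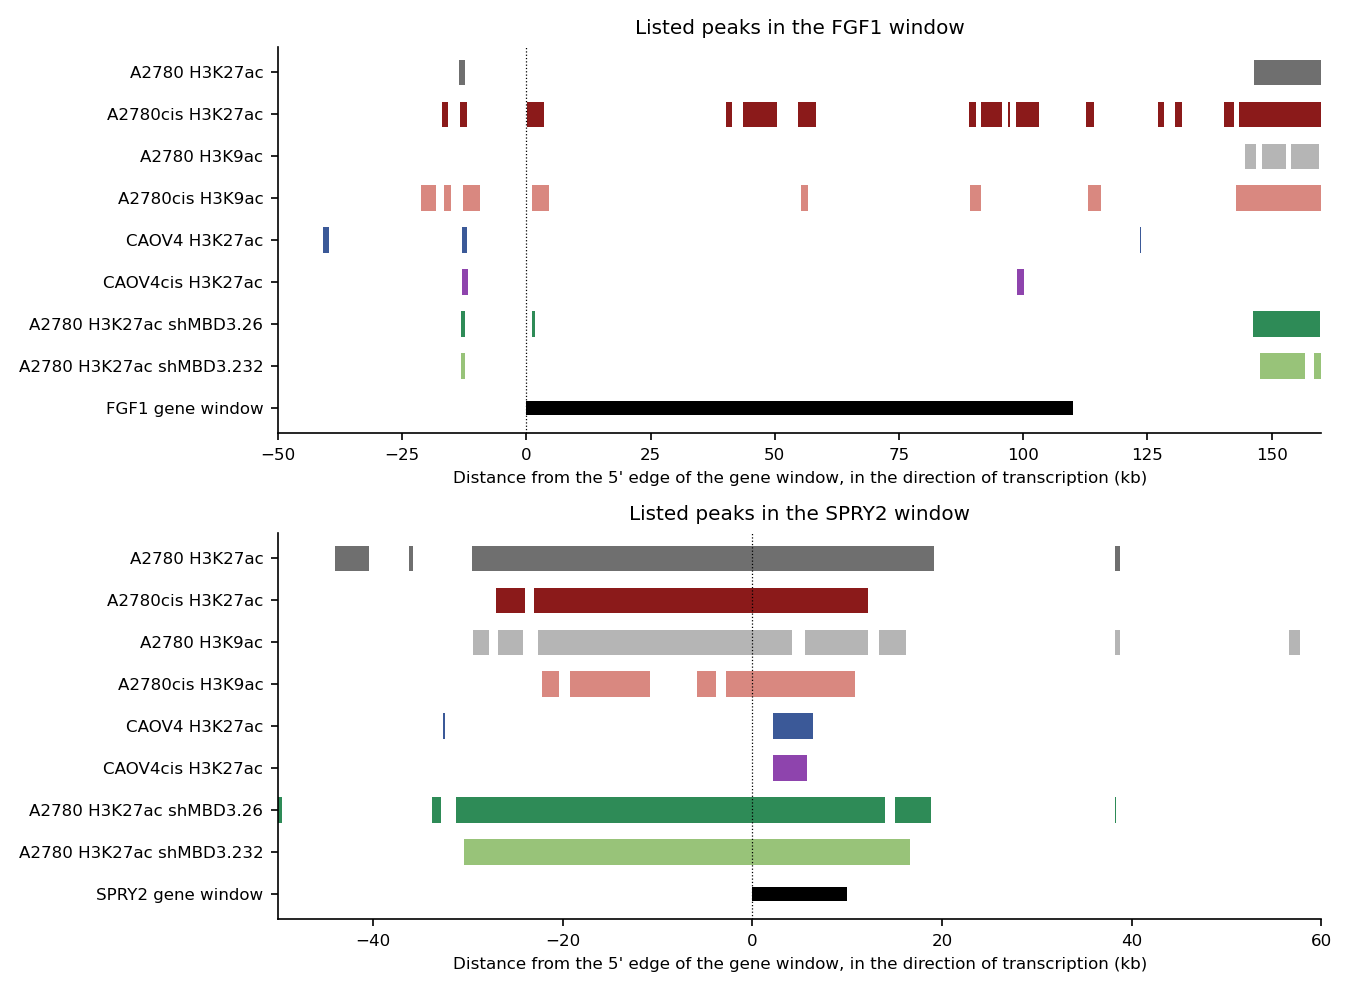
Listed peaks in the windows of *FGF1* (top) and *SPRY2* (bottom), by distance in kb from the 5′ edge of the gene in the direction of transcription, with 1 row per list (1 library each) and the gene window in black. At *FGF1* the A2780cis rows have peaks inside the gene where the A2780 rows have none, and at *SPRY2* the broad peak of A2780 cells (48.8 kb) is shorter in A2780cis cells (35.2 kb).

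Taking the 8 genes as a list, A2780cis cells had 2 windows called higher in H3K27ac than A2780 cells, *FGF10* and *FGF1*, and 0 called lower, where 3.85% of 6697 tiles were called higher and 6.36% lower. The median difference over the 8 windows was 2.92 percentage points, against 0.1 over the tiles. A difference as large as that of *FGF10* or larger was found in 0.343% of the tiles. Because *FGF10* was chosen with this gain known, that share is descriptive only. The other genes and the rule were also chosen with earlier results of these data known. The counts and medians over the 8 windows, the *FGF1* calls included, are therefore descriptive as well. For H3K9ac, the same 2 genes were called higher and 0 lower, where 3.67% of 5912 tiles were called higher and 4.62% lower. The median difference in H3K9ac was 0 over the 8 windows and -0.1 over the tiles, and 3.21% of tiles reached the difference of *FGF10*. With 100 kb on each side of the gene, the H3K9ac differences of *FGF10* and *FGF1* were 4.90 and 5.48 percentage points and neither was called. Both marks were measured in the same pair of lines, so that they do not replicate each other.

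**Figure D4:**
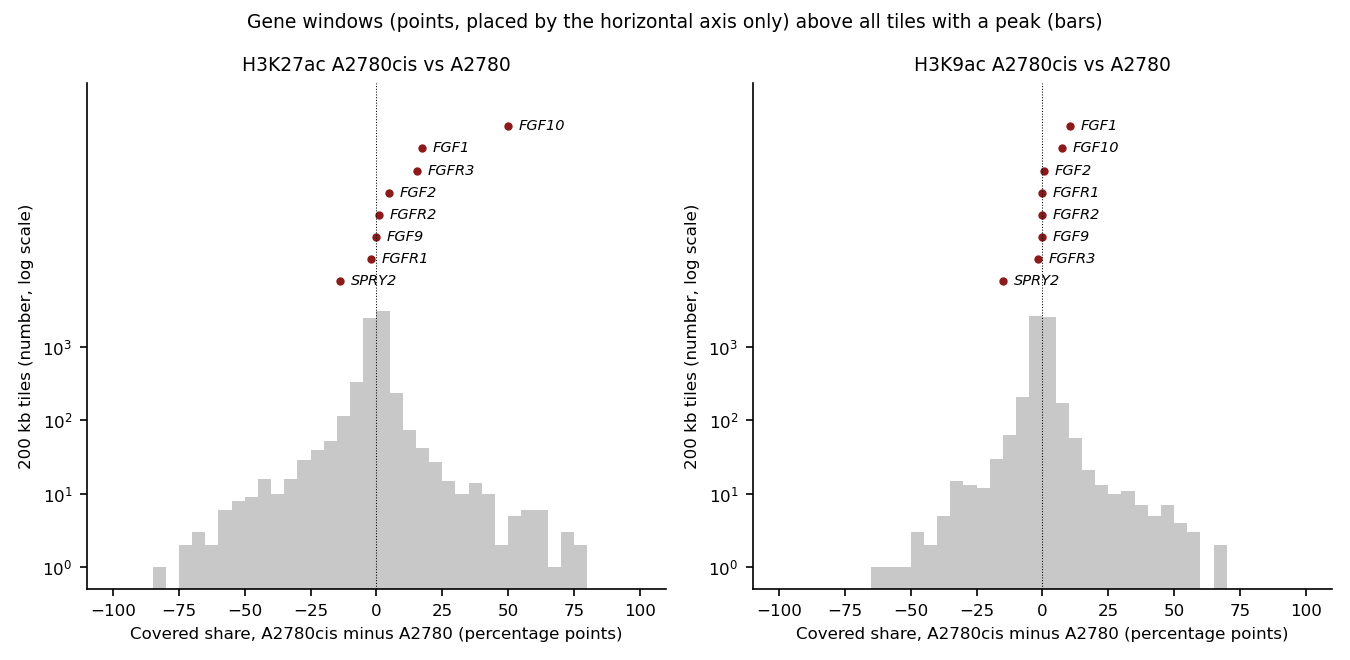
Number of 200 kb tiles (vertical axis, log scale) by the difference in covered share between A2780cis and A2780 cells in percentage points, for H3K27ac (left) and H3K9ac (right), with the 8 gene windows as points placed by the horizontal axis only. *FGF10* lies at 50 for H3K27ac and 7.47 for H3K9ac, and *SPRY2* lies below 0 for both.

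In the CAOV4 pair, 0 of the 8 windows were called higher and 0 lower, where 1.83% of 6730 tiles were called higher and 2.01% lower. The differences ran from -2.09 percentage points at *FGFR2* to 4.67 at *FGFR3*, with a median of 0.0476 over the 8 windows and 0.2 over the tiles. Without the flanks, *FGFR3* was covered at 25% in CAOV4 and 47% in CAOV4cis cells, a difference of 22 percentage points, and *SPRY2* differed by -6.0, and neither was called. *FGF10* had no peak in either CAOV4 list, so the gain seen in A2780cis was not found in CAOV4cis cells. According to the paper, CAOV4cis cells had a shorter cisplatin exposure than A2780cis cells, so the pairs differ in exposure as well as in line. Whether the pairs differ in their change was not tested, since each pair has 1 library per line.

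With shMBD3.26, 0 windows were called higher and 1, *FGFR3*, was called lower than in A2780 cells, where 0.53% of 6411 tiles were called higher and 3.2% lower. This call was lost under 4 of the 8 alternatives tried. With shMBD3.232, 0 were called higher and 0 lower, where 0.622% of 6112 tiles were called higher and 3.53% lower. The median differences over the 8 windows were -1.0 and -1.53 percentage points, and over the tiles -0.5 and -0.7. Both shRNA lists thus leaned lower than the shared A2780 list over the genome as well as over these genes. The peak lists hold no measure of *MBD3* itself, so the knockdown was not checked here.

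Over all 8 windows, the lists held 128.2 kb of H3K27ac in A2780 and 270.6 kb in A2780cis cells. A2780cis cells differed from A2780 by 95 kb at *FGF10*, 36.4 at *FGF1*, 18.6 at *FGFR3* and 8.8 at *FGF2*. The other differences were 2.2 kb at *FGFR2*, 0 at *FGF9*, -3.4 at *FGFR1* and -15.2 at *SPRY2*. The larger total thus rests mostly on *FGF10*, chosen with its gain known, and is descriptive only. Genome-wide, the A2780cis list of this mark was the shorter of the pair, at 94.0 against 98.9 Mb. The H3K27ac totals were 90.8 kb in CAOV4, 97.2 kb in CAOV4cis, 103.0 kb in shMBD3.26 and 101.8 kb in shMBD3.232 cells. H3K9ac came to 90 and 108.4 kb in A2780 and A2780cis cells. Of the 26 H3K9ac peaks of A2780 cells in these windows, 20 (76.9%) shared at least 1 bp with an H3K27ac peak, as did 26 of the 28 (92.9%) of A2780cis cells. Of the H3K27ac peaks, 13 of 29 (44.8%) and 19 of 45 (42.2%) overlapped with H3K9ac. Over all peaks of the lists, the shares were 66.6% and 82.4% of H3K9ac peaks and 45% and 52.9% of H3K27ac peaks, in the same order of lines. By this 1 bp rule, most H3K9ac peaks at these genes thus overlapped with H3K27ac, as they did over the whole lists. Among H3K9ac peaks over 2 kb, 12 of 12 in A2780 and 13 of 17 (76.5%) in A2780cis cells overlapped with H3K27ac at these genes. Over the whole lists these shares were 89.0% and 93.3%, so the order of the 2 lines was the reverse there. Among peaks over 2 kb, 7 of 13 H3K27ac peaks (53.8%) in A2780 and 11 of 31 (35.5%) in A2780cis cells overlapped with H3K9ac at these genes, against 51.1% and 58.8% over the whole lists.

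Of the other genes of the pathway, 27 were listed, and 23 could be assessed. The lists ended before the chromosome ends, with the last peaks at 159.6 Mb on chromosome 3 and 152.2 Mb on chromosome 5 and none on chromosomes 20, 21 and 22, so that *FGF12*, *FGF18*, *FGFR4* and *ETV5* lay beyond them and were not assessed. By the rule of size used here, no pathway gene was called higher in any of the 5 comparisons. This did not hold under 3 of the 8 alternatives. Of the tiles, 3.85% were called higher in A2780cis cells for H3K27ac and 3.67% for H3K9ac. The shares were 1.83% in CAOV4cis, 0.53% with shMBD3.26 and 0.622% with shMBD3.232. With shares this low, the lack of such calls among 23 genes does not set the pathway apart from the tiles. *SPRED1*, an inhibitor of RAS activation, was called lower in 3 of the 5 comparisons. It was covered at 15% in A2780, 2.76% in A2780cis, 6.0% in shMBD3.26 and 4.57% in shMBD3.232 cells. These 3 comparisons share the A2780 list. Without the flanks, *SPRED1* was covered at 21.8% in A2780 and 11.3% in shMBD3.26 cells and that call was lost, as it was at 3 times and at 10 percentage points. In H3K9ac *SPRED1* had 3.71% in A2780 and 2.48% in A2780cis cells and was not called.

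The other calls were single ones. *SPRED2*, a relative of *SPRED1*, was covered at 22% in A2780 and 10.6% in shMBD3.26 cells and called lower, with 12.6% in A2780cis and 17.8% in shMBD3.232 cells. *DUSP6*, the phosphatase that inactivates ERK, was called lower with shMBD3.232 (8.36% against 48.0%), while shMBD3.26 had 35.8%, so that the shRNAs did not show the same value. The gene itself was covered at 86% with shMBD3.232 and in full in A2780 cells, and its flanks over 0.6 and 42.8 kb, so that the call rests on the flanks and was lost without them. *KL*, which encodes the co-receptor Klotho, was covered at 11.1% in CAOV4 and 2.13% in CAOV4cis cells and called lower. In all, 1 of the 23 genes was called lower in A2780cis for H3K27ac, 0 for H3K9ac, 1 in CAOV4cis, 2 with shMBD3.26 and 2 with shMBD3.232, where 6.36%, 4.62%, 2.01%, 3.2% and 3.53% of the tiles were called lower. The median differences of the 23 genes were 0.08, 0, 0, -1.3 and -0.75 percentage points in that order.

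The Sprouty genes were alike in being wide in A2780 and narrow in CAOV4 cells. *SPRY1* was covered by H3K27ac at 59.7% in A2780, 51.8% in A2780cis, 0% in CAOV4 and 2.5% in CAOV4cis cells, and *SPRY4* at 44.6%, 46.6%, 9.69% and 6.92%. *DUSP6* showed 48.0% and 56.5% in the A2780 pair against 10.9% and 15.1% in the CAOV4 pair. *SPRED2* did not follow this order, with 20.6% in CAOV4 and 18.6% in CAOV4cis cells.

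**Figure D5:**
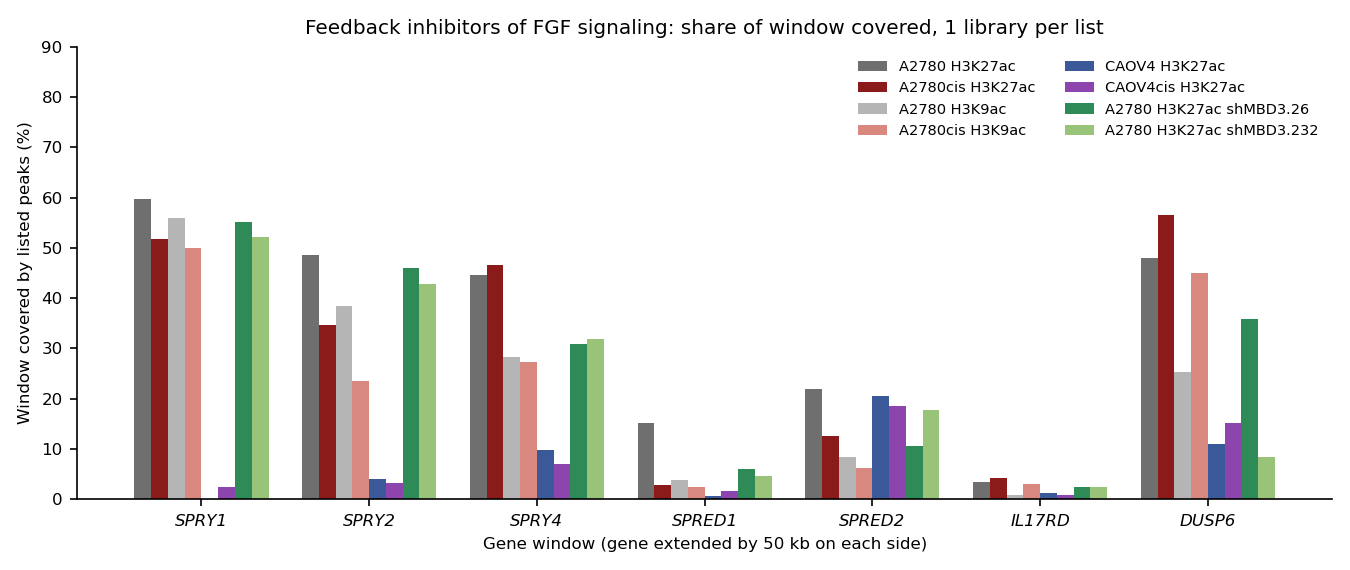
Share of the gene window covered by listed peaks (in percent, with 50 kb on each side) for 7 feedback inhibitors of FGF signaling in the 8 lists, each bar 1 library without an error. *SPRY1*, *SPRY2*, *SPRY4* and *DUSP6* are higher in A2780 than in CAOV4 cells, and *DUSP6* is at 8.36% with shMBD3.232.

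Among the FGF genes of the pathway list, *FGF5*, *FGF13* and *FGF14* had no peak in any list. *FGF7*, like *FGF10* a mesenchymal ligand of FGFR2, had peaks only in shMBD3.26 cells, at 0.118% of its window. *FGF3* was covered at no more than 0.667%. Of the assessed FGF genes with no H3K27ac peak in A2780 cells, *FGF10* was the only one covered over more than 1% of its window in A2780cis cells. Because *FGF10* was included with its gain known, this is descriptive only, and the 1% line is not part of the rule of size. By the Euclidean distance between covered shares over the 8 lists, the genes most like *FGF10* were *FGF1* at 30.1, *FGF2* at 39.4 and *KLB*, which encodes the co-receptor β-Klotho, at 39.8 percentage points. For comparison, *FGF5*, which had no peak in any list, lay at 50.6 percentage points from *FGF10*, so that these 3 genes were only moderately nearer than a gene without peaks.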

How the data were processed

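The labels described 16 samples, 8 of them inputs, and 8 peak lists were used, 1 per ChIP library. As the methods state, the authors used Bowtie2 for alignment, applied a quantile normalization and took MACS2 for peak calling, and the submitters' processing notes name hg19. The score column of the deposited lists was 0 in every row and was not used. Peak boundaries lie on a grid of 200 bp with gaps of 1000 bp or more, a layout that the sources used here do not explain. Windows of the pathway and marker genes were typed in by hand for hg19 and checked against RefSeq GRCh38.p14 for chromosome. Strand was checked only where the promoter table used here gave it. It gave none for *FGF9*, *FGFR1*, *FGF8*, *FGF19*, *GAB1*, *PTPN11*, *ETV4*, *ETV5*, *EPCAM*, *KRT18*, *PECAM1*, *CD3E* and *MYOD1*. The *KRT8* window spans 10 kb, against 52.7 kb for the RefSeq gene. Near *FGF1*, 29 of 106 RefSeq promoters lay in an A2780 H3K27ac peak when moved by the shift between its hg19 window and GRCh38, 0.62 Mb, and 8 when not moved. In this list the shift with the most promoters in peaks lay within 0.01 Mb of that of the window at *FGF10*, *FGF1*, *FGF2*, *FGFR2* and *FGFR3*. At *SPRY2* it was -1.37 Mb (10 of 19 promoters, against 6 at the window's shift) and at *FGF9* -0.29 Mb (7 of 46, against 4), and near *FGFR1* no promoter was in the table. The last peak lay at 197.2 Mb on chromosome 1 and 13.5 Mb on Y, and the ends of the lists on chromosomes 1 to 12 lie near the lengths of the mouse chromosomes of the same number. The cause was not tested, and tiles and totals cover the listed part of the genome only. Peaks were clipped at the window edge.

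The 8 genes, the lists, the rule for calls and the 8 alternatives were chosen with earlier results of these data known. The alternatives were no padding, 100 kb of padding, peaks over 2 kb, equal numbers of widest peaks, 1.5 and 3 times, 10 percentage points and whole peaks. Named were all 8 genes, every pathway gene past the rule in at least 1 comparison, and the 3 genes nearest to *FGF10* in covered share. Other pathway genes were named after their values were seen. As a check of the code, well-covered tiles of the A2780 H3K27ac list were emptied and compared with the unaltered list, and all were called lower. That outcome was fixed by the rule, so the check does not test it on noise, partial changes or gains. Python 3.11.15, numpy 2.4.6, pandas 2.3.3 and matplotlib 3.10.9 were used.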

Additional observations from a re-analysis of the deposited data

Results flagged for a closer look

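At 2 receptors the resistant line of each pair differed from its parent in opposite directions. For *FGFR1*, the H3K27ac difference in covered share was -2.0 percentage points in A2780cis against A2780 cells and 2.24 in CAOV4cis against CAOV4 cells. For *FGFR2*, it was 0.96 and -2.09 percentage points in the same order. Without padding and with peaks over 2 kb, the *FGFR1* differences were 0.286 and 1.88 in A2780cis and 1.14 and 2.12 in CAOV4cis cells, so that the directions were not opposite there, while those of *FGFR2* stayed opposite under all 8 alternatives. None of these differences passed the rule of size, each rests on 1 library per line, and whether the pairs differ was not tested.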

How the results depend on the processing

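Under the 8 alternatives, *FGF10* and *FGF1* were called higher in H3K27ac in A2780cis cells each time, and no window was called in the CAOV4 pair. *FGFR3* was called higher in A2780cis as well with peaks over 2 kb, with equal numbers of peaks and at 1.5 times. With 100 kb of padding, *SPRY2* was called lower in H3K27ac in A2780cis cells. For H3K9ac in A2780cis cells, the number of called windows went from 2 to 1 with 100 kb of padding (*SPRY2* lower), at 3 times (*FGF10*) and at 10 percentage points (*FGF1*). At 1.5 times it went to 3, with *SPRY2* called lower beside *FGF10* and *FGF1*. With shMBD3.26 the number went from 1 to 0 with 100 kb of padding, with equal numbers of peaks, at 3 times and at 10 percentage points, and to 2 at 1.5 times (*FGFR1* and *FGFR3*), and with shMBD3.232 from 0 to 1 at 1.5 times (*FGFR1*). Over peaks wider than 2 kb, 100% of H3K9ac peaks in A2780 and 76.5% in A2780cis cells overlapped with H3K27ac, against 89.0% and 93.3% over the whole lists. H3K27ac peaks with H3K9ac came to 53.8% in A2780 and 35.5% in A2780cis cells, against 51.1% and 58.8%. Of the 40 counts of pathway genes under alternatives, 13 moved by over 1.5 times. Those without padding were 3 for H3K27ac (all lower) and 2 for H3K9ac (*DUSP6* higher, *FGF19* lower) in A2780cis, 4 in CAOV4cis (*FGF19*, *FRS2* and *SPRY1* higher, *SPRY4* lower) and 1 with shMBD3.232 (lower). At 1.5 times they were 2 (lower), 1 (*DUSP6* higher) and 3 (*FGF19* and *FRS2* higher, *KL* lower) in the first 3 of these and 4 with shMBD3.26 (lower). With whole peaks, H3K27ac in A2780cis gave 2, *FGF19* higher and *SPRED1* lower. At 10 percentage points CAOV4cis gave 0 and shMBD3.26 gave 1, and shMBD3.26 also gave 1 with 100 kb of padding and 0 at 3 times. The causes were not tested. The lists limit every value in that depth is unknown, no signal is given and no condition was repeated.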
